A study of Mus musculus with 2 samples.

Results

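Nucleotide synthesis was described through 32 genes that make purines, pyrimidines and the deoxynucleotides of DNA, in cultured mouse macrophages with and without CSF1. The genes were named by their role in the pathway, in a list made with earlier results of these data known. Each was read on its brightest probe set among those annotated to exactly 1 gene. Of the 32 genes, 31 had such a probe set, out of 18194 genes on the arrays; the expression of Impdh2 was not analysed here. The samples were thioglycolate-elicited peritoneal macrophages, cells that gather in the mouse abdomen after injection of an irritant broth, taken by lavage from 8-week-old male wild-type C57BL6 mice. Both cultures were grown in α-MEM with 10% FBS to 80% confluence. The treated culture then received 100 ng/ml CSF1 for 12 h, and the control culture was kept for 12 h without it. CSF1 (M-CSF) is a growth factor that acts through its receptor Csf1r to keep macrophages alive and dividing. RNA of 1 CSF1 sample and 1 control sample was put on 1 Affymetrix Mouse Genome 430 2.0 array each. The labels do not say whether animals were pooled or shared between the samples.

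Cells build purines stepwise on phosphoribosyl pyrophosphate (PRPP) up to inosine monophosphate, which is then split into the adenine and guanine nucleotides. Pyrimidines are built as a free ring, joined to PRPP to give uridine monophosphate, and aminated to cytidine triphosphate. Ribonucleotide reductase turns the diphosphates of both families into deoxynucleotides, and a short side route makes thymidine nucleotides. Dividing cells draw on the last of these branches in S phase, when several of its enzymes are classically most abundant.

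With 1 array per group no test between the groups could be run, and no difference below has a replicate check. The only error that can be given is the SD between the probe sets of a gene. It was 0.29 on the log2 scale when pooled over 3777 genes, and it covers neither cultures nor animals. Genes above a background level of 142.0 units on either array, a level set from genes of unrelated tissues, were taken as measured. These were 10962 genes, whose median log2 ratio of CSF1 over control was 0.00. A gene below that level on 1 array was raised to it there, so that its fold is a lower bound. Signals of different probe sets cannot be set against each other, so levels are compared only between the arrays for the same probe set.

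Macrophage markers were present, with 9 of 9 measured and Csf1r at 18697 units on the CSF1 array and 23704 units on the control array. Their summed signal on the CSF1 array was 0.820 times that on the control array. Of the 9, 8 had a log2 ratio below 0 and 1 above it, against 50.2% of all measured genes above 0. Their median log2 ratio was -0.27. Fibroblast markers were also bright. Of 9 fibroblast and mesothelial markers 8 were measured, 7 of them above background on both arrays. All 8 were higher on the CSF1 array, against 50.2% of all measured genes with a log2 ratio above 0. Their summed signal on the CSF1 array was 1.26 times that on the control array, and their highest log2 ratio was 0.59, for Dcn. Of the 8, Upk3b was measured only through the CSF1 array and so could not have come out lower. Mesothelial markers were dim, and Msln was below background on both arrays. Wt1 had 195 units on the CSF1 array and 175 units on the control array. Of 6 T- and NK-cell markers 4 were measured, Cd3e and Ncr1 being below background on both arrays, with a summed signal of 1332 units on the CSF1 array and 1339 units on the control array. B-cell markers summed to 448 and 593 units, neutrophil markers to 5676 and 5023 units, of which S100a8 made up nearly all, and mast-cell and eosinophil markers to 1688 and 1826 units on the CSF1 and control arrays. These sums take in values below background, so differences between them are not read as differences in cells. Of the B-cell markers only Ms4a1 was above background on both arrays, and of the neutrophil markers only S100a8 on either. Of 6 mast-cell and eosinophil markers 3 were measured, with Cpa3 at 1236 units on the CSF1 array and 1421 units on the control array. Siglecf was also above background on both arrays and Kit on the CSF1 array only, while Mcpt4, Epx and Prg2 were below it on both. Fewer cells of a type and less RNA per cell cannot be told apart in such bulk samples. The part of these cells in the values below was not tested. The log2 ratios of the 18 hybridisation spike probe sets averaged -0.29 ± 0.13 (SD). The ratio of 3' to 5' signal for Gapdh was 1.40 on the CSF1 array and 1.03 on the control array, and for Actb it was 1.38 and 1.35.

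Of the 31 genes, 30 were measured, and 29 of these were above background on both arrays. The 31st, Tyms, was below background on both. An excess of 1.5-fold or more on the CSF1 array was found for 4 of the 30, against 5.85% of all measured genes; they were Tk1, Ctps, Rrm1 and Dut. None was lower by 1.5-fold or more, against 5.33% of all measured genes. Past a smaller threshold of 0.32 on the log2 scale were 7 upward, the further 3 being Umps, Rrm2 and, by its lower bound, Dctd, and 1 downward, Impdh1, against 16.9% and 15.7% of all measured genes. A log2 ratio above 0 was found for 19 of the 30, against 50.2% of all measured genes. The median log2 ratio of the 30 was 0.10, or 1.07-fold. The higher values lay mainly in the deoxynucleotide branch. Its median was 0.34 over 9 measured genes, and 0.29 over the 8 without Dctd, which was measured only through the CSF1 array, against 0.24 over 7 pyrimidine genes, 0.08 over 10 purine genes and -0.10 over the 4 genes that serve both families.

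**Figure D1:**
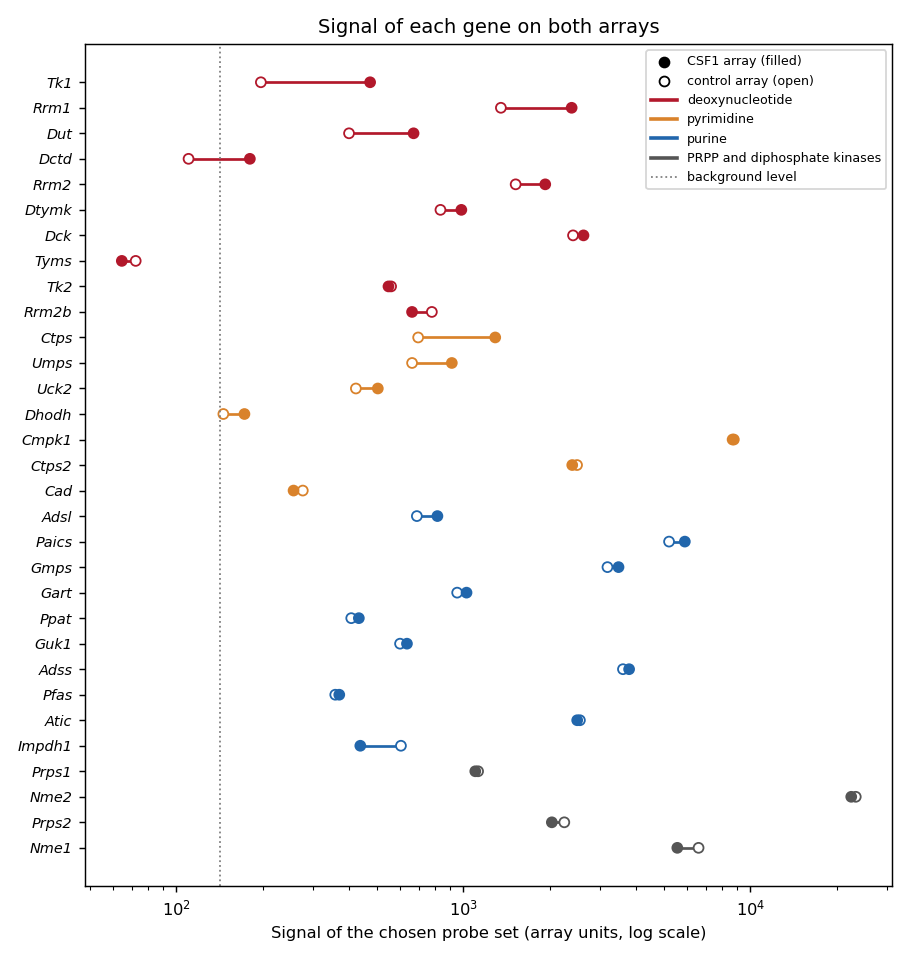
Signal of the chosen probe set of each of the 31 genes (horizontal axis, array units on a log scale), filled for the CSF1 array and open for the control array, coloured by branch and ordered by log2 ratio within it. The line joining the points is longest for Tk1 and Ctps, Tyms lies left of the background level (dotted) on both arrays, and points of different genes cannot be compared because probe sets differ.

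Sequences before a transcription start are shown for the genes with the highest ratios, so that genes that moved alike can be compared. They are Tk1, Rrm1, Dut and Ctps, with Rrm2, which encodes the partner subunit of Rrm1, and Atic as a purine gene whose signals were alike on both arrays. Each line gives the 120 bases before an annotated transcription start, 5′ to 3′ on the gene's strand, from RefSeq (GRCm38.p6). The start used for Dut lies inside its RefSeq gene span, which begins at base 125247248, so its window is wholly within the gene. The Tk1 window is partly within the gene, whose minus-strand span begins at base 117826087. Capitals mark a CCAAT box (CCAAT or its complement ATTGG) or an E-box (CACGTG). The windows are chr11:117826015-117826134 (minus strand) for Tk1, chr7:102441575-102441694 (plus strand) for Rrm1, chr12:24708134-24708253 (plus strand) for Rrm2, chr2:125247395-125247514 (plus strand) for Dut, chr4:120570277-120570396 (minus strand) for the upstream one of 2 starts of Ctps, and chr1:71557036-71557155 (plus strand) for Atic.
Tk1: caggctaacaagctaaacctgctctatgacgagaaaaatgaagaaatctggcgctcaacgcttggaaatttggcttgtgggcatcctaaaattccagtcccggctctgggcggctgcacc
Rrm1: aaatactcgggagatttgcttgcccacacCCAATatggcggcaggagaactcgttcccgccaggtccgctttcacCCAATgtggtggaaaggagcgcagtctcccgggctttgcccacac
Rrm2: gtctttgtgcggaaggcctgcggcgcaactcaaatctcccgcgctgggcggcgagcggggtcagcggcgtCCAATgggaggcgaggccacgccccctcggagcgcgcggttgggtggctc
Dut: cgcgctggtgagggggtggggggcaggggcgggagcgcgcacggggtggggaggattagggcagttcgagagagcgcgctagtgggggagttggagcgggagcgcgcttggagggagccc
Ctps: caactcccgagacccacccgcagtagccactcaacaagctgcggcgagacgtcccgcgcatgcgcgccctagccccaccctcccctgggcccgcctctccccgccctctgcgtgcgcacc
Atic: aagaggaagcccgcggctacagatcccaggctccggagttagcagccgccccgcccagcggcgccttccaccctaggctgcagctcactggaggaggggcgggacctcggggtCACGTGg

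Promoters (250 bases before to 50 after the start) were given for 29 of the 32 genes, 38 promoters in all. A search on both strands for the E2F-type letters TTTCCCGC, TTTCGCGC, TTTGCCGC and TTTGGCGC found them in 0 of 11 promoters of 9 deoxynucleotide genes and in 2 of the 38, those of Ppat and Prps2, against 2.26% of 32851 promoters. The CCAAT box was in 5 of 11 deoxynucleotide promoters, those of Rrm1, Rrm2, Dtymk and Dctd, against 37.4% of all promoters. In Rrm1 it stood at 91 and 45 bases and in Rrm2 at 50 bases before the start, while the promoters of Tk1, Dut and Ctps held none. The E-box was in 7 of the 38 promoters, those of Atic, Paics, Impdh2, Dtymk, Tyms and Nme1, against 7.15% of all. Thus the 4 genes past 1.5-fold had no E-box or E2F-type match in these windows, and only Rrm1 among them had a CCAAT box. The 2 CCAAT matches of Dctd are 1 genomic site in overlapping promoters. Different motifs did not overlap, and a match or its lack in these letters says nothing about binding.

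Ribonucleotide reductase makes deoxynucleoside diphosphates from ribonucleoside diphosphates, and its large catalytic subunit gene Rrm1 had 2386 units on the CSF1 array and 1352 units on the control array. This is 1.76-fold higher, and the 2 probe sets above background agreed closely, their log2 ratios averaging 0.82 ± 0.01 (SD). Rrm2, the small subunit of S-phase cells, had 1931 units on the CSF1 array and 1523 units on the control array on its brightest probe set, 1.27-fold higher. By its name, that probe set may also detect other transcripts. The other 2 probe sets of Rrm2 gave more, 1287 and 1268 units on the CSF1 array against 821 and 862 units on the control array, or 1.57-fold and 1.47-fold higher. All 3 probe sets of Rrm2 were therefore higher on the CSF1 array, and their mean log2 ratio was 0.52 ± 0.16 (SD). The alternative small subunit gene Rrm2b, a p53 target that serves cells outside S phase, went the other way, with 663 units on the CSF1 array and 777 units on the control array, 1.17-fold lower. Its second probe set above background gave 304 units on the CSF1 array and 446 units on the control array, and the mean of both was -0.39 ± 0.23. The log2 ratio of Rrm2 exceeded that of Rrm2b by 0.57 on the brightest probe sets and by 0.91 on the means of probe sets.

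Tk1, the cytosolic thymidine kinase that salvages thymidine in S phase, had the highest ratio of the 30 genes. Its signal was 474 units on the CSF1 array and 197 units on the control array, 2.40-fold higher, on its only probe set. This was the 1 gene past 2-fold, a fold that 0.94% of all measured genes passed upward and 0.712% downward, and 32 of the 10962 measured genes had a higher ratio. The control signal lay close above the stricter background level of 192.1 units that an alternative used. Tk2, the mitochondrial thymidine kinase, had 549 units on the CSF1 array and 560 units on the control array, so the log2 ratio of Tk1 was 1.29 above that of Tk2.

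On the route to thymidylate, Dut encodes the dUTPase that removes deoxyuridine triphosphate and yields the substrate of thymidylate synthase. It had 671 units on the CSF1 array and 400 units on the control array, 1.68-fold higher, on a probe set that may detect other transcripts too. Its other probe set was below background on both arrays. Dctd, which deaminates deoxycytidylate to the same substrate, had 180 units on the CSF1 array and 110 units on the control array. The control value is below background, so Dctd is at least 1.27-fold higher, and since it was measured only through the CSF1 array it could not have come out lower. Tyms itself, thymidylate synthase, had 4 probe sets of its own, all below background on both arrays, the brightest at 64.6 units on the CSF1 array and 72.2 units on the control array. A probe set annotated jointly to Tyms and the pseudogene Tyms-ps had 611 units on the CSF1 array and 446 units on the control array, 1.37-fold higher, and the files do not tell which of them it reads. Dtymk, the kinase that turns thymidylate into its diphosphate, was 1.18-fold higher on its brightest probe set, with 985 units on the CSF1 array and 833 units on the control array. Its 3 probe sets disagreed. They gave 896, 751 and 985 units on the CSF1 array against 417, 665 and 833 units on the control array, a mean log2 ratio of 0.51 ± 0.52 that is no larger than its SD. Dck, the deoxycytidine kinase of salvage, had 2624 units on the CSF1 array and 2413 units on the control array, and its 3 probe sets averaged 0.16 ± 0.27 on the log2 scale, within their SD.

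**Figure D2:**
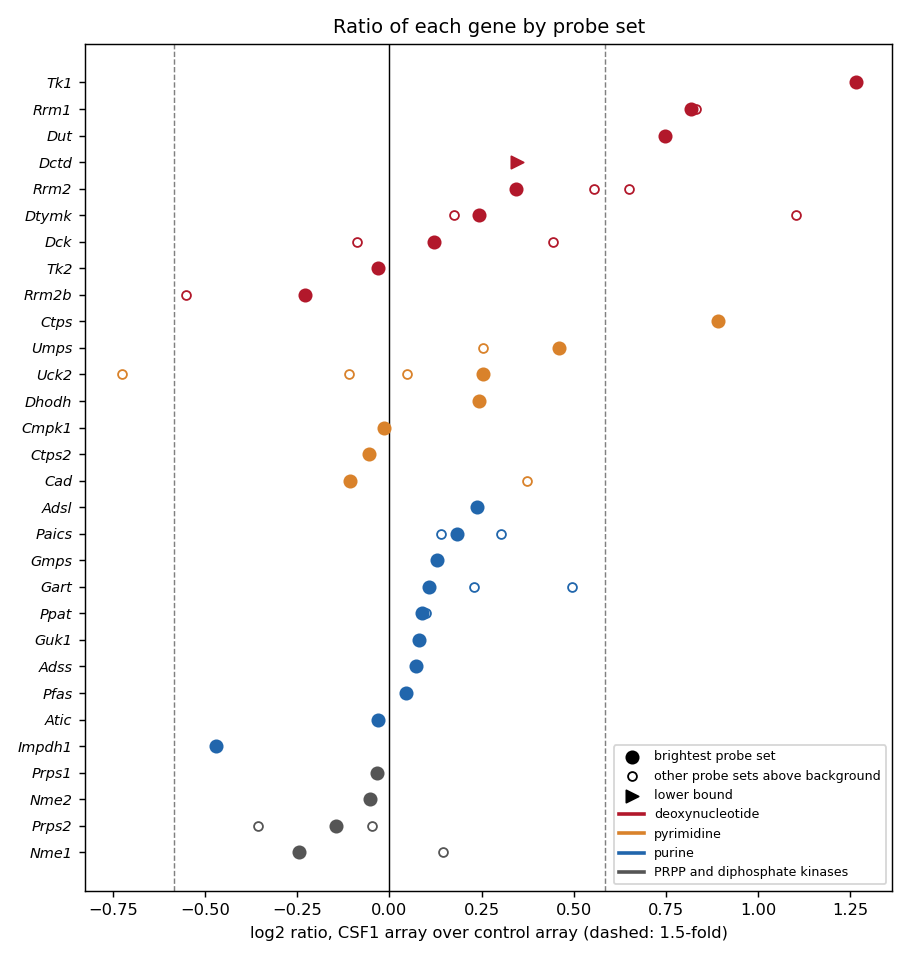
Log2 ratio, CSF1 over control (horizontal axis), for the 30 measured genes, with filled points for the brightest probe set, open points for further probe sets with both signals above background, and a triangle for the lower bound of Dctd; dashed lines mark 1.5-fold. Tk1, Rrm1, Dut and Ctps lie right of the 1.5-fold line, purine genes lie near 0 apart from Impdh1, and the open points of Uck2, Dtymk and Cad lie far from their filled ones.

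In the pyrimidine branch the gene that stood out was Ctps, a CTP synthase, which converts uridine triphosphate to cytidine triphosphate. It had 1292 units on the CSF1 array and 696 units on the control array, 1.86-fold higher, on its single probe set, and 164 of all measured genes had a higher ratio. Its paralog Ctps2 had 2397 units on the CSF1 array and 2492 units on the control array, a log2 ratio of -0.06, which lies 0.95 below that of Ctps. Umps carries out the last steps to uridine monophosphate. It had 912 units on the CSF1 array and 663 units on the control array, 1.38-fold higher, and its 2 probe sets averaged 0.36 ± 0.15 (SD). The entry enzymes were not clearly displaced. Cad, the trifunctional protein that begins the pathway, had 256 units on the CSF1 array and 276 units on the control array on one probe set but 223 and 172 units on another, so that the mean of 0.13 ± 0.34 has no settled sign. Dhodh, the mitochondrial dehydrogenase of the pathway, had 173 units on the CSF1 array and 146 units on the control array, both close to background. The salvage kinase Uck2 was 1.19-fold higher on its brightest probe set, at 504 units on the CSF1 array and 422 units on the control array. Another of its 4 probe sets gave 235 units on the CSF1 array and 388 units on the control array, and all 4 averaged -0.13 ± 0.42, within their SD. Cmpk1, which phosphorylates uridine and cytidine monophosphates, had 8680 units on the CSF1 array and 8767 units on the control array, a log2 ratio of -0.01.

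The purine branch was close to flat. Of its 10 measured genes, 8 had a log2 ratio above 0, against 50.2% of all measured genes and 7 of 9 deoxynucleotide genes. None was past 1.5-fold in either direction. With 5.85% of all measured genes past it upward and 5.33% downward, this says little for 10 genes. Apart from Impdh1 all lay between -0.03 and 0.24. The first committed enzyme, Ppat, had 433 units on the CSF1 array and 407 units on the control array, and its 2 probe sets averaged 0.09 ± 0.01. Gart, which carries out 3 of the steps, was 1.08-fold higher at 1027 units on the CSF1 array and 952 units on the control array, and its 3 probe sets averaged 0.28 ± 0.20. Pfas, the amidotransferase of the middle of the pathway, had 370 units on the CSF1 array and 358 units on the control array. Paics, which acts later in the pathway, had 5917 units on the CSF1 array and 5213 units on the control array. Its 3 probe sets agreed on a small difference, 0.21 ± 0.08. Ppat and Paics lie head to head on mouse chromosome 5 with overlapping ends in the RefSeq annotation, and had log2 ratios of 0.09 and 0.18. Adsl, the lyase used in both the common pathway and the adenine branch, had the highest ratio here, 1.18-fold, with 813 units on the CSF1 array and 689 units on the control array. Atic, which closes the ring to inosine monophosphate, had 2494 units on the CSF1 array and 2549 units on the control array.

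Past inosine monophosphate only Impdh1 lay apart from the other purine genes. Impdh1, an isoform of the dehydrogenase that opens the guanine branch, had 438 units on the CSF1 array and 606 units on the control array, 1.39-fold lower. This was the lowest ratio of the 30 genes, it rests on 1 probe set, and 8.28% of all measured genes had a lower one. Gmps, the next enzyme of that branch, had 3475 units on the CSF1 array and 3181 units on the control array, 1.09-fold higher. Guk1, the guanylate kinase, had 636 units on the CSF1 array and 602 units on the control array, 1.06-fold higher. On the adenine side Adss had 3784 units on the CSF1 array and 3602 units on the control array, 1.05-fold higher. Apart from Impdh1, these ratios were smaller than the pooled SD between probe sets of a gene.

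The 4 genes that serve both families had log2 ratios between -0.25 and -0.03. None was past 1.5-fold, against 5.85% of all measured genes upward and 5.33% downward. Nme2 came to 0.09 under quantile normalization and 0.0097 under loess correction, and Prps1 to 0.0016 with a probe set annotated jointly to it and Prps1l3, so the signs of these 2 are not settled. Prps1 and Prps2 encode the synthetases of PRPP. Prps1 had 1101 units on the CSF1 array and 1126 units on the control array, and Prps2 had 2035 and 2250 units, with a mean of -0.18 ± 0.16 over its 3 probe sets. The nucleoside diphosphate kinase genes Nme1 and Nme2, neighbours on mouse chromosome 11, are close copies whose probe sets may cross-hybridise. Nme2 had 22489 units on the CSF1 array and 23319 units on the control array. Nme1 had a brightest probe set 1.19-fold lower, at 5570 units on the CSF1 array and 6606 units on the control array, but its other probe set was higher, at 5126 and 4636 units, and the mean of both was -0.05 ± 0.28, within its SD. On those means Nme1 and Nme2 both lay at -0.05.

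Between branches, the median log2 ratio of the deoxynucleotide genes was 0.26 above that of the purine genes and 0.10 above that of the pyrimidine genes. The median of the pyrimidine genes was 0.16 above that of the purine genes, an order that turned under spike centring and with all probe sets of a gene averaged. Branch medians rest on 4 to 10 genes. The pyrimidine median fell on Dhodh, a gene close to background, and became 0.043 under centring on the hybridisation spikes, 0.034 with all probe sets of a gene averaged and 0.11 with the stricter background level. The purine median was 0.095 and 0.080 under the first 2 of these. The deoxynucleotide median stayed between 0.25 and 0.51 and the purine median between 0.07 and 0.10 under the 11 recomputations of the probe set, scaling and background. Of the 9 measured deoxynucleotide genes, 3 were higher by 1.5-fold or more, as was 1 of the 7 pyrimidine genes, against 5.85% of all measured genes. With all probe sets averaged, dim ones included, Rrm1 and Dut came under 1.5-fold, at 0.52 and 0.055 on the log2 scale.

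Lists of related processes give the setting of these values, beside the 5.85% of all measured genes that were higher by 1.5-fold or more. DNA replication genes had a median log2 ratio of 0.46, with 16 of 38 higher by 1.5-fold or more, from Gins2, a helicase subunit gene, at 2.99-fold higher to Pold1, a polymerase subunit gene, at 1.46-fold lower. Of the 38, Cdc6, Orc1 and Pole were measured only through the CSF1 array and so could not have come out lower. None of these was past 1.5-fold, and the median over the 35 genes above background on both arrays was 0.46. The 2 probe sets of Gins2 averaged 1.34 ± 0.34 on the log2 scale, while those of Pold1 disagreed, at -0.12 ± 0.60. Genes of serine and folate one-carbon metabolism, which supplies carbons to purines and thymidylate, had a median of 0.36, with 4 of 12 measured genes higher by 1.5-fold or more. They ranged from the mitochondrial serine hydroxymethyltransferase gene Shmt2, with 620 units on the CSF1 array and 318 units on the control array, 1.95-fold higher, to Mtr, methionine synthase, 1.18-fold lower. The 2 probe sets of Shmt2 averaged 0.51 ± 0.65, within their SD. Ribosome biogenesis genes had a median of 0.21 with 2 of 35 past 1.5-fold upward, a share near that of all genes. The highest was Rrp9, at least 2.33-fold higher, which was measured only through the CSF1 array and so could not have come out lower, and the lowest was Nop58, 1.44-fold lower. The deoxynucleotide median of 0.34 lay below the DNA replication median, an order that turned with shared probe sets left out (0.46 against 0.40), and the purine median of 0.08 lay below all 3 lists; these are descriptions of 2 arrays, with no test.

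**Figure D3:**
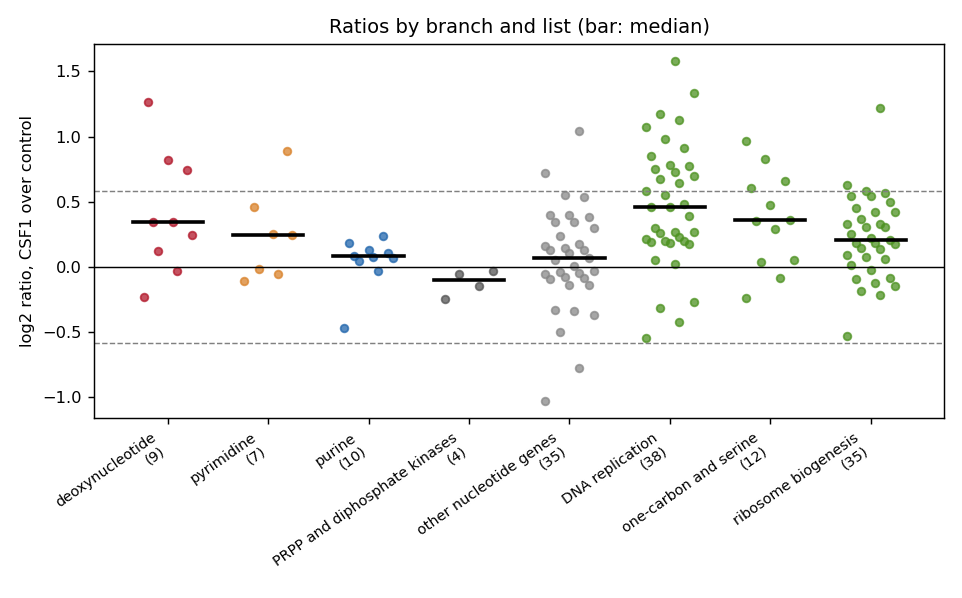
Log2 ratio of CSF1 over control (vertical axis) for every measured gene of the 4 branches, of the other nucleotide genes and of 3 lists for comparison, with the number of genes in parentheses, a black bar at each median and dashed lines at 1.5-fold. The bars step down from deoxynucleotide (0.34) over pyrimidine (0.24) and purine (0.08) genes to the genes serving both families (-0.10), and DNA replication has the highest bar (0.46).

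Beyond the 32 genes, 50 genes of nucleotide salvage, phosphorylation, breakdown, regulation and transport were listed. Of these, 40 had a probe set of their own and 35 were measured. Their median log2 ratio was 0.07, with 2 higher and 2 lower by 1.5-fold or more, near the shares of all measured genes (5.85% and 5.33%). Adssl1, a paralog of Adss listed with the regulators, had 1310 units on the CSF1 array and 1652 units on the control array, 1.26-fold lower. Ada, adenosine deaminase, which turns adenosine into inosine, had 487 units on the CSF1 array and 236 units on the control array, 2.06-fold higher on 1 measured probe set. Nt5e (CD73), the surface enzyme that releases adenosine from its monophosphate, had 326 units on the CSF1 array and 557 units on the control array, 1.71-fold lower, and its 2 probe sets averaged -0.65 ± 0.18. Ada and Nt5e had ratios of opposite sign, but both were named here because they passed 1.5-fold. No pattern of adenosine genes is read from this pair. Ak4, a mitochondrial adenylate kinase, had 326 units on the CSF1 array and 664 units on the control array, 2.04-fold lower, and its 2 probe sets averaged -1.13 ± 0.14. Nme6, a member of the nucleoside diphosphate kinase family, had 567 units on the CSF1 array and 345 units on the control array, 1.64-fold higher on 1 measured probe set. Samhd1, the deoxynucleotide triphosphatase that keeps these pools low in macrophages, had a brightest probe set 1.26-fold lower, at 3642 units on the CSF1 array and 4580 units on the control array. Its 4 probe sets averaged -0.18 ± 0.43, within their SD. The purine salvage gene Hprt had 7446 units on the CSF1 array and 7706 units on the control array, a log2 ratio of -0.05.

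**Figure D4:**
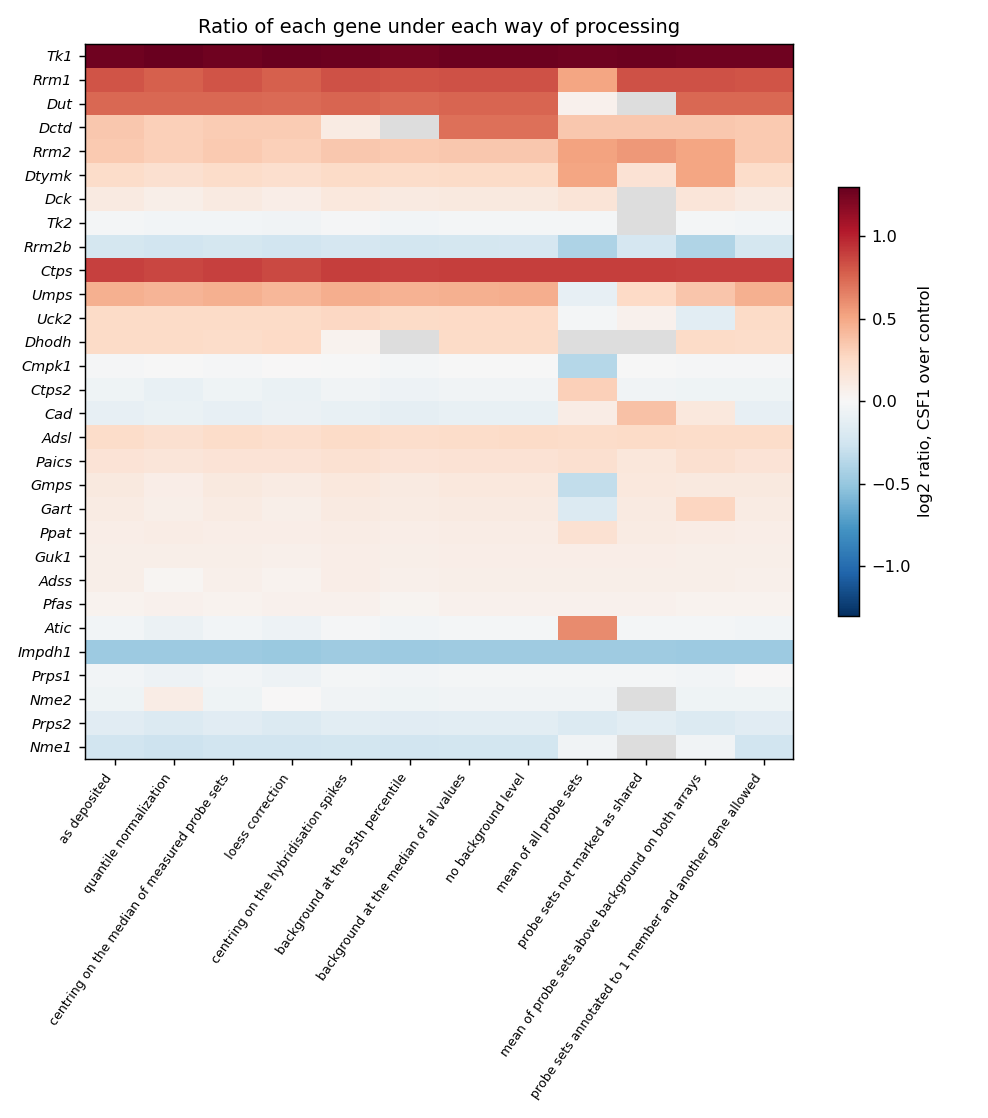
Log2 ratio of CSF1 over control (colour, red for higher and blue for lower on the CSF1 array) for the 30 measured genes in rows, as deposited and under 11 other ways of processing in columns, with the median of all measured genes subtracted under each alternative; grey cells have no value. Tk1 and Ctps stay past 1.5-fold in every column, Impdh1 stays between -0.48 and -0.46, and the column that averages all probe sets, dim ones included, changes the most rows.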

How the data were processed

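The deposited table holds intensity values on a linear scale for 45101 probe sets on 2 arrays, made by the authors with GeneSpring 6.2 per the labels' design text. How probes were summarised is not stated in the sources used here. With 2% of values trimmed at either end, both arrays had a mean of 500.0 units. Values were used without further scaling. Groups came from the labels. Of the probe sets, 34958 carried 1 gene symbol, 932 several and 9211 none; those with 1 symbol were used, and joint ones only where named. All 31 genes matched the RefSeq table by Entrez ID. The background level was the 90th percentile of the signals of 125 probe sets for 78 genes that other tissues express, of 90 listed. A few of these genes, such as Mbp, were far above it. Above it lay 40.5% of the CSF1 array's probe sets and 42.1% of the control array's. No test could be run with 1 array a group, so precision is limited by the number of arrays. The list of 32 genes, their branches, the other lists and the motifs were chosen with earlier results of these data known. All genes of the list were named, with others of the pathway past 1.5-fold, Hprt, Samhd1 and Adssl1, and the highest and lowest gene of each list for comparison. The procedure was tested on simulated arrays, with differences larger than any of the 30 genes planted in genes far above background. That test says nothing about smaller differences or genes near background. Alternatives were quantile, median, loess (span 0.3) and spike scaling, other background levels, other choices of probe set and other fold thresholds. A name ending in _s_at, _x_at or _a_at marks a probe set that may detect more than 1 transcript; 13 of the 30 measured genes were read on such a probe set. Python 3.11.15 was used with pandas 2.3.3, numpy 2.4.6, statsmodels 0.14.6 and scipy 1.17.1, and matplotlib 3.10.9 for plots.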

Additional observations from a re-analysis of the deposited data

How the results depend on the processing

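No paired analysis was possible because each group had 1 array. From each alternative's values the median over measured genes was subtracted, which was 0.28 with spike centring and lay between -0.01 and 0.02 otherwise. The count of genes at least 1.5-fold higher was 4 as reported and between 3 and 5 under the 11 recomputations; it was 1 with a threshold of 2-fold and 7 with a log2 threshold of 0.32, at which 1 gene, Impdh1, was lower. Median and spike centring act on every gene equally, so once that shift is taken off they alter a ratio only by way of the background level and say little about stability. Tk1, Ctps, Rrm1 and Dut kept ratios above 0 wherever they had a value. With all probe sets averaged, which takes in those below background, the 3 genes were Tk1, Ctps and Atic (0.61), while Rrm1 was at 0.52 and Dut at 0.055; Umps was then at -0.10, Gmps at -0.32, Cmpk1 at -0.37 and Ctps2 at 0.31. Dctd was at 0.72 with no background level. The pyrimidine median was 0.043 with spike centring, 0.11 with the stricter background level, 0.034 with all probe sets averaged and 0.13 with those above background averaged (an alternative added after seeing the data). The deoxynucleotide median was 0.46 with shared probe sets left out and 0.51 with those above background averaged. The DNA replication median was 0.54 with the background at the median of all values and 0.54 with none, 0.52 with all probe sets averaged, 0.51 with those above background averaged and 0.40 with shared probe sets left out. The one-carbon median was 0.17 with shared probe sets left out and 0.25 with those above background averaged, and the median of the other nucleotide genes was 0.016 with all probe sets averaged. The cause of these moves was not tested.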

Other observations

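Where several probe sets of a gene were above background on both arrays, they did not always agree. More than 1 such probe set was present for 13 of the 31 genes, and for 9 of them all such probe sets had ratios of the same sign. The exceptions were Cad, Uck2, Dck and Nme1. For Gart, a further probe set had 85.3 units on the CSF1 array, below background, and 250.1 units on the control array, while its 3 others were higher on the CSF1 array. For Umps, 1 probe set had 67.0 units on the CSF1 array, below background, and 142.3 units on the control array, barely above it, against 2 that were higher. For Ctps2, 1 probe set had 217 units on the CSF1 array and 102 units, below background, on the control array. The brightest probe set of Ctps2 had a log2 ratio of -0.06. These probe sets were singled out after their values were seen.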
